A study of Mus musculus with 9 samples.

Results

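The comparison was between left ventricle RNA of mice that lack delta-sarcoglycan and of wild-type mice, all kept on plain drinking water. Of the 9 libraries of the series, the 4 whose titles give vehicle (veh) were used, 2 from wild type (WT) and 2 from delta-sarcoglycan (dSG) knockout (KO). All animals were on a C57BL/6 strain background, WT or dSG knockout by genotype, and were 6 months old. From weaning they drank water without drug. Running wheels were offered from time to time to bring out the heart muscle disease, and the hearts were rinsed with PBS before the RNA was taken. The other 5 libraries came from mice given ifetroban, a drug that blocks the receptor for thromboxane, at 25 mg/kg/day, and served here only to estimate the spread between replicates. The labels used here give neither the sex, nor the deleted exons, nor whether replicates came from separate animals, so the p-values measure only the spread between these libraries.

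Delta-sarcoglycan, the product of Sgcd, is a membrane protein of the dystrophin-glycoprotein complex, which links the actin cytoskeleton of a muscle cell through the membrane to laminin in the basement membrane. Without it the sarcoglycans do not assemble properly at the membrane, the membrane tears more easily during contraction, and muscle cells are lost and replaced by scar. In mice and in people, loss of delta-sarcoglycan causes limb-girdle muscular dystrophy with cardiomyopathy.

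The vehicle libraries held 21648094 and 24302832 counts in WT and 25936623 and 25342316 in KO, and 15549 genes of 20634 were tested with the quasi-likelihood test of edgeR. Levels are given in CPM, counts scaled to the size of the library with TMM factors, in the order replicate 1, replicate 2, and changes as log2 KO over WT with the standard error (SE) of the fit. A value in brackets directly after the levels of a gene is its log2 change. Fits that leave out a library use the others to estimate the spread, so a lone library is assumed to vary like them. The libraries differed in a slope with transcript length. In the library labelled WT vehicle replicate 1 and in both KO libraries, longer transcripts were relatively low (Spearman's rho across genes of -0.46, -0.40 and -0.45), whereas in WT vehicle replicate 2 they were relatively high (0.41). The WT libraries were also farther apart than the KO libraries (chi-square per degree of freedom of 65.4 against 10.99). The targeted gene also set a WT library apart. Sgcd (mm10 chromosome 11, 46896253 to 47988969, minus strand) measured 8.36 and 20.9 CPM in WT and 9.64 and 8.63 CPM in KO, from counts of 163 and 517 in WT and 254 and 215 in KO, so the library labelled WT vehicle replicate 1 was as low as the KO libraries. The change was -0.69 ± 0.39 (SE; edgeR, adjusted p = 0.749), and it was -1.19 with that library left out and 0.13 with WT vehicle replicate 2 left out. The deposited value covers the whole gene, so transcripts that keep undeleted exons are counted too, and the level does not check the labels. Log2 changes and medians against each WT library alone are therefore given where they turn the sign or move the value by more than 1.5 times, in the order the library labelled WT vehicle replicate 1, WT vehicle replicate 2, unless the libraries are named. A comparison with the library labelled WT vehicle replicate 1 alone is the comparison within libraries of the same slope.

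Past an adjusted p of 0.05 were 8 genes, 0.0515% of those tested, with 6 higher in KO (0.0386%) and 2 lower (0.0129%). The genes that rose encode a stretch-responsive nuclear protein of the heart muscle cell (Ankrd1) and secreted proteins of scar and connective tissue (Postn, Thbs4, Ltbp2, Lox and Frzb). The genes that fell encode securin (Pttg1) and a subunit of the WAVE actin regulator (Cyfip2). At an unadjusted p under 0.05 were 810 genes higher in KO (5.21%) and 419 lower (2.69%). With a single WT library kept these shares differed, most of all for lower genes, which were far more common when WT vehicle replicate 2 was the one kept. Counts of list members against each WT library alone therefore cannot be set against the shares given here. Both KO libraries lay above both WT libraries in 18.3% of all genes and below both in 17.6%, which is the background for the counts of groups that do not overlap given further on. The median change over all genes was -0.02.

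Ankrd1 (mm10 chromosome 19, 36111965 to 36119844, minus strand, protein-coding), whose product moves between the sarcomere and the nucleus in stretched heart muscle, measured 833 and 634 CPM in WT and 2749 and 2550.4 CPM in KO. Both KO libraries lay far above both WT libraries and close to each other. The change was 1.85 ± 0.19 (SE; edgeR, adjusted p = 0.0111), with 2.07 against WT vehicle replicate 2 alone and 1.67 against the library labelled WT vehicle replicate 1 alone.

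Thbs4 (chromosome 13, 92751590 to 92794818, minus strand), which encodes thrombospondin-4, a matricellular glycoprotein that is made by stressed muscle and binds collagens, measured 4.57 and 4.05 CPM in WT and 18.5 and 24.8 CPM in KO. The WT libraries were nearly equal and each KO library was several times higher. The change was 2.33 ± 0.20 (SE; edgeR, adjusted p = 0.00556). Postn (chromosome 3, 54361109 to 54391037, plus strand) encodes periostin, a matricellular protein secreted by activated fibroblasts. It measured 34 and 34.1 CPM in WT and 148 and 253 CPM in KO, with the same level in both WT libraries and a wide gap between the KO libraries, and changed by 2.56 ± 0.33 (SE; edgeR, adjusted p = 0.0385).

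The upstream sequences of these 3 genes are shown because each holds a motif that was searched in all promoters (RefSeq, GRCm38.p6, the 250 bases before the annotated start). The motifs were GGAATG, the muscle CAT element bound by TEAD factors, TGANTCA, bound by AP-1, and TATAAA, the TATA box, each on both strands. In the sequences shown no match of a motif overlaps a match of another. Capitals mark the matches of all 3 motifs, and a match on the opposite strand is printed as its reverse complement.

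Ankrd1, chr19:36119845-36120094, minus strand: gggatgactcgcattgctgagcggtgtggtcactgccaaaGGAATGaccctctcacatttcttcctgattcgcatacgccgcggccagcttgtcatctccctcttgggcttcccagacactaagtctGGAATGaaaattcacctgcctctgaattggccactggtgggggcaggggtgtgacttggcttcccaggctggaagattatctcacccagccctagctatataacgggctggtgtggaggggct

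Thbs4, chr13:92794819-92795068, minus strand: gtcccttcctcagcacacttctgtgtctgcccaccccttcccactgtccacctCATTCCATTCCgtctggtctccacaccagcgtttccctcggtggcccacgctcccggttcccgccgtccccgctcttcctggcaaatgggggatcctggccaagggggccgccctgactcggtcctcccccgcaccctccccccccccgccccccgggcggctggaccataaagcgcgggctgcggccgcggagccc

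Postn, chr3:54360857-54361106, plus strand: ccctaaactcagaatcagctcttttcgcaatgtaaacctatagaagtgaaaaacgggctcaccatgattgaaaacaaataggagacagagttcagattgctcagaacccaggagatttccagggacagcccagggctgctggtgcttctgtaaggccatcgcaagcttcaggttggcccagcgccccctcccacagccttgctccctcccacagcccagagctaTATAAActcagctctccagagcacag

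In Ankrd1 the GGAATG matches begin 210 and 123 bases before the start, and in Thbs4 they begin 197 and 192 bases before it and share a base. Among 10550 promoters of tested genes, 10.8% held GGAATG and 0.72% held it at least 2 times. Of the 8 genes past the threshold 7 had a promoter in the table, and 2 of those 7 held the motif. TATAAA was found in 1 of the 7, Postn, 26 bases before the start, and in 6.63% of all promoters. TGANTCA was in none of the 7 and in 4.26% of all. A match is a run of letters, not evidence that a factor binds there.

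Ltbp2 (chromosome 12, 84783212 to 84876532, minus strand) encodes a latent TGF-beta binding protein found on fibrillin microfibrils. It measured 2.56 and 4.78 CPM in WT and 26.5 and 40.4 CPM in KO, and the change of 3.17 ± 0.39 (SE; edgeR, adjusted p = 0.0361) was the largest among the genes that rose. Lox (chromosome 18, 52516069 to 52529867, minus strand) encodes lysyl oxidase, which cross-links collagen and elastin, and measured 3.8 and 5.71 CPM in WT and 14 and 17.7 CPM in KO, a change of 1.73 ± 0.22 (SE; edgeR, adjusted p = 0.0361). In both genes the WT libraries differed, the library labelled WT vehicle replicate 1 being the lower, so that Ltbp2 changed by 3.70 against it and by 2.81 against the other, and Lox by 2.06 and 1.48. Frzb (chromosome 2, 80411970 to 80447625, minus strand), a secreted antagonist of Wnt ligands, measured 3.23 and 3.48 CPM in WT and 12.3 and 13.5 CPM in KO. Its levels were close within each group, and it changed by 1.94 ± 0.21 (SE; edgeR, adjusted p = 0.0178).

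Pttg1 (mm10 chromosome 11, 43420250 to 43426251, minus strand) encodes securin, which holds separase inactive until sister chromatids part. It measured 64.8 and 41.5 CPM in WT and 1.33 and 2.25 CPM in KO, so that little of the transcript remained in KO, and fell by 4.89 ± 0.29 (SE) on the log2 scale (edgeR, adjusted p = 2.99e-04). Cyfip2 (chromosome 11, 46193850 to 46312859, minus strand), a subunit of the WAVE complex that starts branched actin filaments, measured 173 and 237 CPM in WT and 27.4 and 30.03 CPM in KO and fell by 2.84 ± 0.27 (SE; edgeR, adjusted p = 0.00889). For both genes the library labelled WT vehicle replicate 1 lay with the other WT library and far from KO, unlike for Sgcd.

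**Figure D1:**
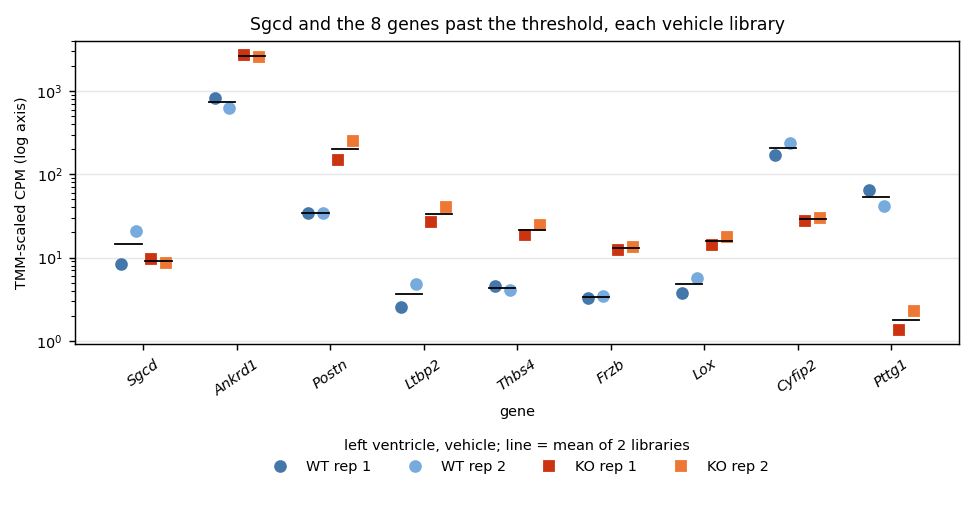
Level of Sgcd and of the 8 genes past the threshold in each vehicle library, as TMM-scaled CPM on a log axis, with circles for WT, squares for KO and a line at the mean of the 2 libraries of a group. For Sgcd the library labelled WT vehicle replicate 1 (8.36 CPM) sits with the KO libraries, and for each of the 8 other genes the WT and KO libraries are apart.

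When any of the 9 libraries was left out, none of these genes changed sign, and Thbs4 (2.11 to 2.52) and Pttg1 (-5.32 to -4.53) passed each time. Ankrd1 and Cyfip2 did not pass without KO vehicle replicate 1 (adjusted p = 0.118 and 0.119, edgeR) or KO vehicle replicate 2 (0.114 and 0.136). Frzb did not pass when any of the 4 vehicle libraries was left out (adjusted p from 0.0845 to 0.170). Ltbp2 lost its call when any vehicle library or either WT ifetroban library was left out (0.0691 to 0.220). Lox lost it without the library labelled WT vehicle replicate 1, either KO vehicle library, KO ifetroban replicate 2 or either WT ifetroban library (0.0727 to 0.272), and Postn lost it in those cases and without WT vehicle replicate 2 (0.0631 to 0.226). Calls numbered 4 when the library labelled WT vehicle replicate 1 was dropped, and 2 and 3 when KO vehicle replicate 1 or replicate 2 was. They numbered 15 and 13 when KO ifetroban replicate 1 or replicate 3 was dropped. With an offset for transcript length and GC content 35 passed, 31 higher and 4 lower. Within the libraries of negative slope, where WT is a lone library assumed to vary like the KO ones, 247 genes passed, 184 higher and 63 lower, and 7 of the 8 genes were among them, all but Postn (2.57, adjusted p = 0.277, edgeR).

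Both genes that fell lie on the chromosome of Sgcd. Relative to Sgcd, Cyfip2 starts at -0.702 Mb and Pttg1 at -3.476 Mb, both towards lower coordinates. Of the 90 other genes tested within 5 Mb of Sgcd, these were the 2 that fell and none rose, whereas of the 15458 genes elsewhere 6 rose and none fell. Over the 90 neighbours the median change was -0.03, both KO libraries lay below both WT libraries for 22.2% of the 90 genes against 17.6% elsewhere, and above them for 14.4% against 18.3%. At an unadjusted p under 0.05, 7 of the 90 neighbours were lower, Pttg1 and Cyfip2 included, against 412 of the 15458 genes elsewhere. Higher were 3 of the 90, against 807 elsewhere. The neighbours were examined because the genes with the largest falls in earlier results lie on this chromosome. Of the other 5 lower neighbours, 4 were Adra1b, an alpha-adrenergic receptor gene (39.4 and 44.3 CPM in WT and 26.2 and 22.4 CPM in KO), Ublcp1, Trim7 and Clk4, with changes of -0.78, -0.67 (-0.94 and -0.36 against each WT library alone), -0.62 and -0.39. The higher ones were Havcr2, Adamts2 and Fstl4 (1.15, 0.90 and 0.75). None of the 7 named here passed (edgeR, adjusted p from 0.319 to 0.582). The nearest tested gene on the side of lower coordinates, Timd4, a phosphatidylserine receptor of resident macrophages, overlapped between the groups, at 2.51 and 1.21 CPM in WT and 3.15 and 2.05 CPM in KO.

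**Figure D2:**
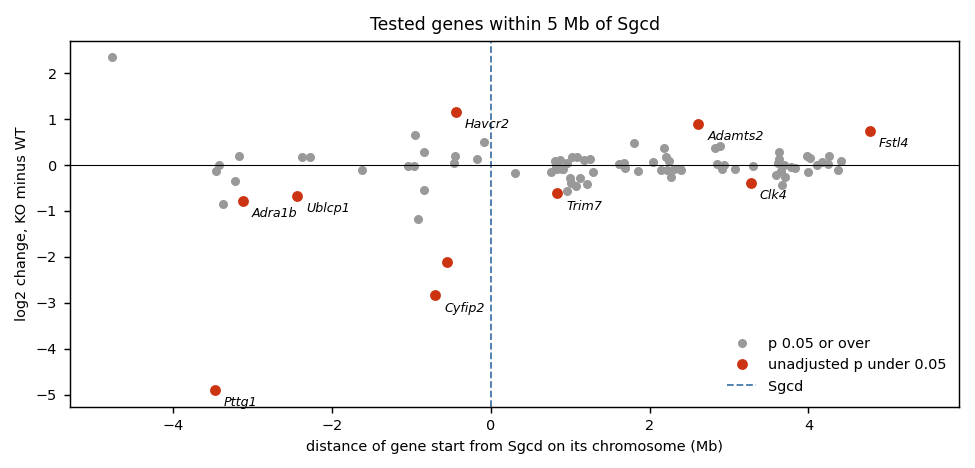
Log2 change, KO minus WT on vehicle, of each of the 90 tested genes within 5 Mb of Sgcd against the distance of its start from Sgcd in Mb, with genes at an unadjusted p under 0.05 in red. Pttg1 and Cyfip2 are the lowest points.

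The remaining members of the dystrophin complex and the enzymes that glycosylate dystroglycan differed little. None of the 21 tested was past the threshold or at an unadjusted p under 0.05 (2 and 3 lower against each WT library alone), 7 lay lower in both KO libraries and 1 higher, and the median was -0.19 (-0.20 and -0.07 against WT vehicle replicate 2 and the library labelled WT vehicle replicate 1 alone). Sgca and Sgcb encode alpha- and beta-sarcoglycan. Sgca measured 94 and 86.5 CPM in WT and 72.4 and 83.6 CPM in KO (-0.21). Sgcb measured 140.5 and 148 CPM in WT and 118 and 129.7 CPM in KO (-0.22). Sgce, the sarcoglycan of smooth muscle and other tissues, had the highest change of the set, at 11.2 and 10.5 CPM in WT and 12.8 and 15.3 CPM in KO (0.37; edgeR, adjusted p = 0.641). Dystrophin itself, Dmd, measured 108 and 159 CPM in WT and 88.3 and 99.9 CPM in KO, and its change of -0.51 became -0.20 against the library labelled WT vehicle replicate 1 alone.

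Genes of mechanical load and of the fetal heart programme were higher in part. Of 25 tested, Ankrd1 rose, 9 were higher at an unadjusted p under 0.05 and none lower, and the median was 0.36 (0.51 and 0.59 against WT vehicle replicate 2 and the library labelled WT vehicle replicate 1 alone, with 2 and 1 genes lower at an unadjusted p under 0.05). Nppa, which encodes atrial natriuretic peptide, a hormone that the ventricle makes under load, measured 213 and 202 CPM in WT and 905 and 863 CPM in KO. Each KO library was several times above each WT library, but the change of 2.09 ± 0.32 (SE) did not pass (edgeR, adjusted p = 0.0822). Nppb, the gene of B-type natriuretic peptide, behaved alike at 185 and 205 CPM in WT and 632 and 482 CPM in KO (1.51 ± 0.32 SE; edgeR, adjusted p = 0.184).

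Myosin and actin isoforms varied between libraries of the same genotype. Myh7, the slow beta-myosin heavy chain gene, was high in KO vehicle replicate 2 alone, at 162 and 158 CPM in WT and 192 and 667 CPM in KO (1.43 ± 0.49 SE; edgeR, adjusted p = 0.464). Myh6, the adult alpha-myosin gene, measured 14398 and 22577 CPM in WT and 12629 and 13069 CPM in KO, and its change of -0.52 became -0.16 against the library labelled WT vehicle replicate 1 alone and -0.81 against WT vehicle replicate 2 alone. The skeletal alpha-actin gene Acta1 overlapped between the groups, at 1089.6 and 258 CPM in WT and 749 and 1104 CPM in KO, and its change of 0.46 was 1.85 or -0.23 depending on which WT library was kept. The ubiquitin hydrolase gene Uchl1 was higher in both KO libraries, at 7.59 and 5.02 CPM in WT and 11.5 and 14.3 CPM in KO (1.04; edgeR, adjusted p = 0.275). The 24 structural sarcomere genes gave no call in either direction, a median of -0.08 (-0.13 and -0.00 against each WT library alone, and -0.01 and -0.23 without KO vehicle replicate 1 or replicate 2), and 21 of them overlapped between the groups. Ttn, the gene of the giant protein titin, had the lowest log2 change of the list, -0.68, which became -0.23 against the library labelled WT vehicle replicate 1 alone.

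Genes of calcium handling and excitation were lower on the whole. None of the 33 passed, but 16 lay below WT in both KO libraries and 1 above, 6 were lower at an unadjusted p under 0.05 and none higher, and the median was -0.30 (-0.35 and -0.17 against WT vehicle replicate 2 and the library labelled WT vehicle replicate 1 alone). Kcnj3, a subunit of the potassium channel that acetylcholine opens, measured 77.8 and 83.4 CPM in WT and 45.9 and 49.8 CPM in KO, a change of -0.75 ± 0.18 (SE; edgeR, adjusted p = 0.246). Hrc, a calcium-binding protein of the sarcoplasmic reticulum, measured 833 and 968 CPM in WT and 643 and 657 CPM in KO (-0.47; edgeR, adjusted p = 0.352). In both genes the WT libraries were close and both KO libraries lower. Cacna2d1, an auxiliary calcium channel subunit, and Kcnj2, the inward rectifier that sets the resting potential, had log2 changes of -0.50 and -0.49, and Kcnj2 gave -0.22 and -0.70 against each WT library alone. The ryanodine receptor gene Ryr2, the calcium release channel, had a log2 change of -0.72, but -0.15 against the library labelled WT vehicle replicate 1 alone and -1.11 against WT vehicle replicate 2 alone. The summed heart muscle markers given further on were also lower in both KO libraries, though not with Myh6 left out, and their part in these values was not tested.

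Genes of membrane repair, the process that patches a torn sarcolemma, had a median that varied with the library left out. Of 23, none passed, 9 were higher at an unadjusted p under 0.05 and none lower, 12 lay higher in both KO libraries and 2 lower, and the median was 0.19. With KO vehicle replicate 1 or replicate 2 left out the median was 0.06 and 0.29. Genes higher at an unadjusted p under 0.05 numbered 5 and 10 against each WT library alone. Anxa1, an annexin that binds membranes when calcium enters, was higher in both KO libraries, at 16.2 and 13.6 CPM in WT and 29.6 and 26.9 CPM in KO (0.93 ± 0.19 SE; edgeR, adjusted p = 0.164). Anxa8 was at low counts, 5 and 6 in WT and 47 and 32 in KO. The membrane-remodelling ATPase gene Ehd4 measured 479.9 and 479.9 CPM in WT and 612 and 655 CPM in KO (0.40; edgeR, adjusted p = 0.409).

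Secreted and matrix proteins made up 5 of the 6 genes that rose. Among 22 collagen genes none passed, yet 13 lay above WT in both KO libraries and none below, 12 were at an unadjusted p under 0.05, all higher, and the median was 0.59. By p, the first 4 were fibrillar collagens of scar, whereas the largest change of the list was 3.29, in Col8a2, named after its values were seen, at 0.41 and 0.445 CPM in WT and 2.28 and 6.22 CPM in KO. Col3a1 measured 122 and 198 CPM in WT and 413 and 432 CPM in KO, a change of 1.40 ± 0.25 (SE; edgeR, adjusted p = 0.134). Col1a1 measured 89.8 and 117 CPM in WT and 197 and 233 CPM in KO (1.06 ± 0.20 SE; edgeR, adjusted p = 0.147), and Col1a2 and Col5a2 had log2 changes of 1.00 and 0.95. In all 4 the library labelled WT vehicle replicate 1 was the lowest, and the median of the collagens was 0.99 against it alone (17 higher at an unadjusted p under 0.05) and 0.43 against the other WT library (9 higher).

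Enzymes that process collagen included Lox, 1 of 24 past the threshold. At an unadjusted p under 0.05 were 12 higher and 1 lower, and 17 were above WT in both KO libraries. The median was 0.34 (0.46 against either WT library alone). Loxl1, another cross-linking oxidase, needed for elastic fibres, measured 38.8 and 46.3 CPM in WT and 81.8 and 76 CPM in KO (0.89 ± 0.13 SE; edgeR, adjusted p = 0.0822). Pcolce, which speeds the cleavage of procollagen, measured 46.9 and 40.3 CPM in WT and 77.6 and 81.7 CPM in KO (0.87 ± 0.15 SE; edgeR, adjusted p = 0.134). Adamts2, the protease that removes the amino-terminal propeptide of procollagen, measured 20.2 and 24.8 CPM in WT and 38.2 and 45.9 CPM in KO (0.90), and Loxl3 had a log2 change of 1.16.

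Matricellular genes covered a wide range. Postn and Thbs4 rose among 23 tested, 13 were higher at an unadjusted p under 0.05 and none lower, 16 lay above WT in both KO libraries and none below, and the median was 0.72. Ctgf, a growth factor of connective tissue that responds to TGF-beta and stretch, measured 46.6 and 62.8 CPM in WT and 133 and 136 CPM in KO (1.29 ± 0.20 SE; edgeR, adjusted p = 0.0822). Cthrc1, a secreted product of activated fibroblasts, had counts of 0 and 2 in WT and 18 and 83 in KO, most of them in KO vehicle replicate 2. Spp1, which encodes osteopontin, a cytokine-like matrix protein of macrophages and injured tissue, had counts of 4 and 8 in WT and 145 and 51 in KO, with KO vehicle replicate 1 the higher.

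Among 17 proteoglycan genes none passed, 12 were higher at an unadjusted p under 0.05 and none lower, and the median was 0.60. Bgn, biglycan, a small leucine-rich proteoglycan that binds collagen and TGF-beta, measured 189 and 191 CPM in WT and 367 and 482 CPM in KO (1.16 ± 0.18 SE; edgeR, adjusted p = 0.0822). Vcan, versican, a large proteoglycan of provisional matrix, measured 17 and 16.6 CPM in WT and 33.4 and 32 CPM in KO (0.96 ± 0.18 SE; edgeR, adjusted p = 0.147), with hardly any spread within a group. Lum and Dcn, lumican and decorin, had log2 changes of 0.71 and 0.53. Dropping the library labelled WT vehicle replicate 1 left 6 higher and 1 lower at an unadjusted p under 0.05, and dropping WT vehicle replicate 2 left 11 higher and none lower.

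For TGF-beta signalling and elastic fibres, Ltbp2 was 1 of 34 past the threshold, 12 were higher at an unadjusted p under 0.05 and 1 lower, and the median was 0.39 (0.32 and 0.69 against WT vehicle replicate 2 and the library labelled WT vehicle replicate 1 alone). Of the ligands, Tgfb2 measured 8.98 and 8.79 CPM in WT and 19.9 and 21.5 CPM in KO, with close replicates (1.22 ± 0.18 SE; edgeR, adjusted p = 0.071). Tgfb3 measured 17.8 and 15.3 CPM in WT and 28.7 and 28.6 CPM in KO (0.80 ± 0.16 SE; edgeR, adjusted p = 0.164). Tgfb1 measured 24.9 and 27.9 CPM in WT and 34.3 and 32.1 CPM in KO (0.33 ± 0.16 SE; edgeR, adjusted p = 0.688). Differences between the ligands were not tested. Fstl1, a follistatin-like glycoprotein of stroma, measured 109 and 87.9 CPM in WT and 193 and 229 CPM in KO (1.10; edgeR, adjusted p = 0.106). Gdf15, a circulating stress hormone, measured 1.28 and 1.21 CPM in WT and 5.88 and 5.1 CPM in KO (2.13 ± 0.39 SE; edgeR, adjusted p = 0.142).

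Of 32 matrix proteases and inhibitors none passed, 14 were higher at an unadjusted p under 0.05 and none lower (11 and 10 higher and 2 and 1 lower against each WT library alone), and the median was 0.61. Mmp3, stromelysin, measured 2.87 and 2.75 CPM in WT and 12.4 and 5.42 CPM in KO (1.66; edgeR, adjusted p = 0.164), and the protease inhibitor gene Serpine2 measured 25.6 and 20.4 CPM in WT and 37.7 and 35.5 CPM in KO (0.67). Plat, tissue plasminogen activator, had a log2 change of 0.58. Of 17 secreted Wnt regulators and targets Frzb rose and 6, Frzb included, were higher at an unadjusted p under 0.05, with none lower (1 and 1 lower against each WT library alone). The next by p were also secreted antagonists or relatives of them. Dkk3 measured 2 and 2.51 CPM in WT and 10.1 and 16.3 CPM in KO (2.54 ± 0.40 SE; edgeR, adjusted p = 0.0849). Sfrp2 measured 2.15 and 3.12 CPM in WT and 13 and 21.4 CPM in KO (2.69 ± 0.56 SE; edgeR, adjusted p = 0.181). Sfrp1 measured 12.2 and 20.5 CPM in WT and 43.7 and 51.6 CPM in KO (1.54 ± 0.40 SE; edgeR, adjusted p = 0.31). For each of these 3 genes the WT and KO libraries did not overlap. The median of the list was 0.14, with -0.00 against WT vehicle replicate 2 alone, 0.59 against the library labelled WT vehicle replicate 1 alone and -0.01 without KO vehicle replicate 1. Of the 17, 6 lay above WT in both KO libraries and 3 below, 10 had a positive change, and the lowest change was -1.59.

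**Figure D3:**
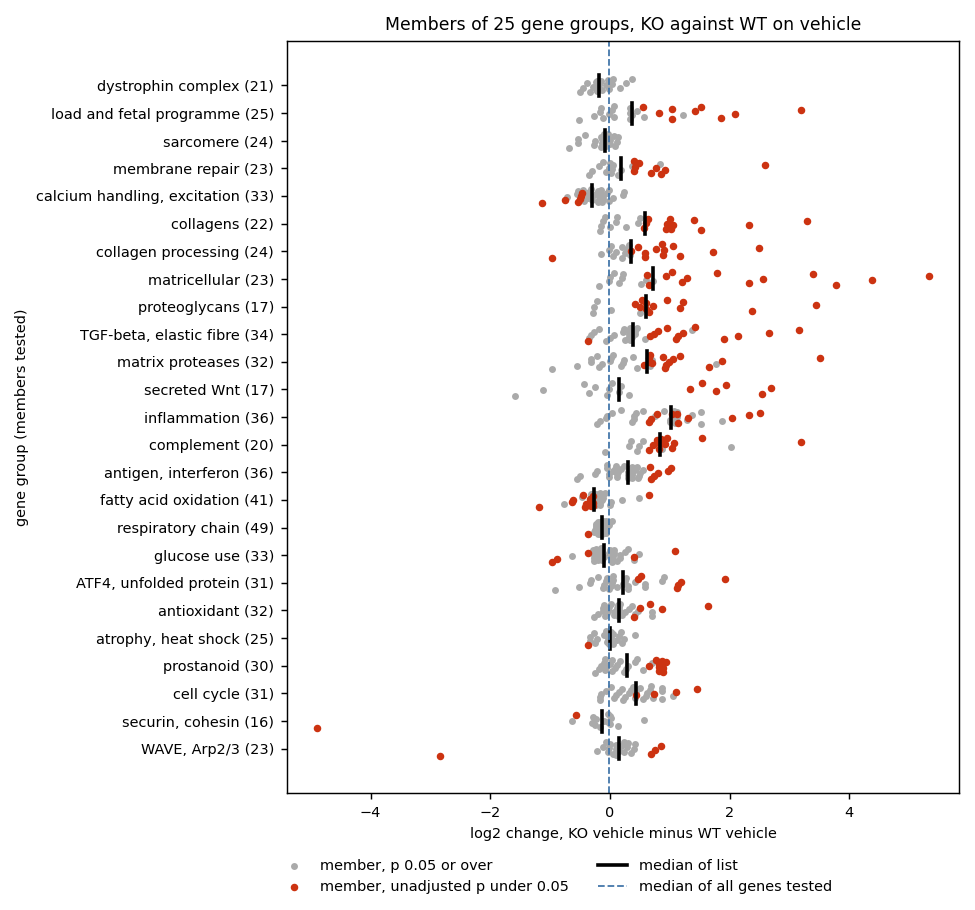
Log2 change, KO minus WT on vehicle, of every tested member of 25 gene groups, with members at an unadjusted p under 0.05 in red, a bar at the median of the group and a dashed line at the median of all genes (-0.02). The matrix groups other than secreted Wnt (0.14), and inflammation and complement, lie to the right, with medians from 0.34 to 1.02. Cell cycle (0.43) and the load and fetal programme (0.36) also lie to the right. Fatty acid oxidation and calcium handling lie to the left, with medians of -0.26 and -0.30.

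Markers of the cells that a piece of ventricle holds were set beside these groups. In bulk RNA, more cells of a type and more RNA per cell cannot be told apart. Heart muscle markers (8 tested) summed to 45256 and 48392 CPM in WT and 37941 and 40524 CPM in KO, lower in both KO libraries, and all 8 were counted in every library. Myh6 alone held 14398 and 22577 CPM in WT and 12629 and 13069 CPM in KO, and without it the sums overlap between the groups. The median of the 8 was -0.17 (-0.18 and -0.00 against each WT library alone), with 3 below WT in both KO libraries, none above, 5 overlapping and none at an unadjusted p under 0.05. With KO vehicle replicate 1 or replicate 2 left out the median was -0.12 and -0.30. The fibroblast list of 20 markers, all tested, summed to 2141 and 2298 CPM in WT and 3092 and 3339 CPM in KO. This list shares Col1a1, Col1a2, Dcn and Lum with the collagen and proteoglycan groups, so its sum is not separate from them. All 20 had a positive change, 15 lay above WT in both KO libraries, 13 were higher at an unadjusted p under 0.05, none passed, and the median was 0.62 (0.70 and 0.58 against WT vehicle replicate 2 and the library labelled WT vehicle replicate 1 alone). Cilp, a matrix protein of cartilage and of cardiac fibroblasts, measured 19.6 and 18 CPM in WT and 93.2 and 114 CPM in KO (2.46 ± 0.52 SE; edgeR, adjusted p = 0.185), and Mgp, an inhibitor of calcification, 96.3 and 71.7 CPM in WT and 167 and 187 CPM in KO (1.08 ± 0.19 SE; edgeR, adjusted p = 0.142). The part of fibroblast number in the matrix values was not tested.

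Macrophage markers were higher in most cases. Of 31, all tested, 26 lay above WT in both KO libraries and 1 below, 23 were higher at an unadjusted p under 0.05 and none lower, none passed, and the median was 0.94 (1.00 and 0.86 against WT vehicle replicate 2 and the library labelled WT vehicle replicate 1 alone, with 21 and 20 genes higher). The summed level was 655 and 608 CPM in WT and 1108 and 1074 CPM in KO, a sum in which Apoe, given below, is counted. Of the members of this list, C1qa is also in the complement group and Ctss among the matrix proteases. Lgals3, galectin-3, measured 2 and 1.9 CPM in WT and 13.8 and 9.03 CPM in KO (2.55 ± 0.42 SE; edgeR, adjusted p = 0.105). Trem2, a lipid-sensing receptor of macrophages that clear debris, measured 1.54 and 1.46 CPM in WT and 4.4 and 5.18 CPM in KO (1.67 ± 0.29 SE; edgeR, adjusted p = 0.123), with little spread in either group. Ctss, the lysosomal protease cathepsin S, measured 12.6 and 9.76 CPM in WT and 24.3 and 22.1 CPM in KO (1.06), and Apoe, a lipid carrier, 233 and 225 CPM in WT and 370.2 and 445 CPM in KO (0.83).

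Other cell types showed less. Endothelial markers (19) had a median of -0.06, which turned with the WT library (0.11 and -0.16 against each WT library alone), and a summed level of 2179 and 2134 CPM in WT and 1953 and 1930.2 CPM in KO. Among them Plvap, a protein of fenestrated and venous endothelium, measured 4.82 and 6.12 CPM in WT and 11.5 and 11.4 CPM in KO (1.06 ± 0.22 SE; edgeR, adjusted p = 0.166). The water channel gene Aqp1 measured 438 and 328 CPM in WT and 253 and 265 CPM in KO (-0.56, or -0.76 and -0.33 against each WT library alone; edgeR, adjusted p = 0.589). Smooth muscle and pericyte markers (16) had a median of 0.12, which also turned (0.39 and -0.06), and a summed level of 3691 and 3656 CPM in WT and 3782 and 3907 CPM in KO, with the smooth muscle actin gene Acta2, which myofibroblasts also make, at 64.4 and 96 CPM in WT and 201 and 127 CPM in KO (1.03; edgeR, adjusted p = 0.372). Lymphocyte markers were near the limit of counting, with 9 of 17 tested and a summed level of 16.2 and 19.5 CPM in WT and 26.1 and 23.3 CPM in KO. Of these, Ptprc, the pan-leukocyte gene that macrophages share, measured 5.59 and 6.52 CPM in WT and 11.7 and 10.2 CPM in KO (0.85; edgeR, adjusted p = 0.21). Granulocyte and mast cell markers (9 tested) summed to 15.5 and 12.5 CPM in WT and 14.3 and 21.7 CPM in KO. All 9 had a positive change, 2 lay above WT in both KO libraries, and none was at an unadjusted p under 0.05. Their median was 0.51 (0.21 and 0.86 against each WT library alone, and 0.62 and 0.14 without KO vehicle replicate 1 or replicate 2). Schwann cell and neuron markers (6 tested) summed to 16.2 and 18.9 CPM in WT and 16.6 and 16.9 CPM in KO. Both sums overlapped between the groups.

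Lists of blood and of tissues that a dissection can add came last. Erythroid and platelet genes (9 tested) summed to 1665 and 549.7 CPM in WT and 1237 and 243 CPM in KO, so that replicate 1 of each genotype held several times the level of replicate 2. Atrial markers (4 tested) summed to 824 and 911 CPM in WT and 1651 and 1661 CPM in KO, a sum in which Nppa is counted. Of the others in that list Tbx5 and Pam had log2 changes of -0.34 and 0.25 (for Pam 0.36 and 0.15 against each WT library alone), and the atrial genes Myl7, Sln, Bmp10 and Hamp were not tested. Skeletal muscle markers (4 tested of 10) summed to 3249.8 and 1930.4 CPM in WT and 2309.8 and 2879.5 CPM in KO, mesothelial ones (6 tested) to 5.75 and 13.6 CPM in WT and 7.02 and 8.79 CPM in KO and adipocyte ones (4 tested) to 545 and 356 CPM in WT and 431 and 458 CPM in KO, all with overlap between the groups. Nearly all of the skeletal sum was Ckm (2159 and 1671 CPM in WT and 1559 and 1774.5 CPM in KO) and Acta1, given above. Tnni2 and Mylpf lay between 0.31 and 1.33 CPM, and Myh1, Myh2 and Myh4 were not tested. Most of the adipocyte sum was Fabp4 (509 and 318 CPM in WT and 398 and 427 CPM in KO), which the endothelial list also holds, and Adipoq and Plin1 were not tested. Within the adipocyte list, 2 genes were at low counts in every library. Cfd had counts of 0 and 7 in WT and 44 and 31 in KO, and Car3 had counts of 3 and 12 in WT and 50 and 44 in KO. No measured marker of any list was at 0 in all 4 vehicle libraries.

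**Figure D4:**
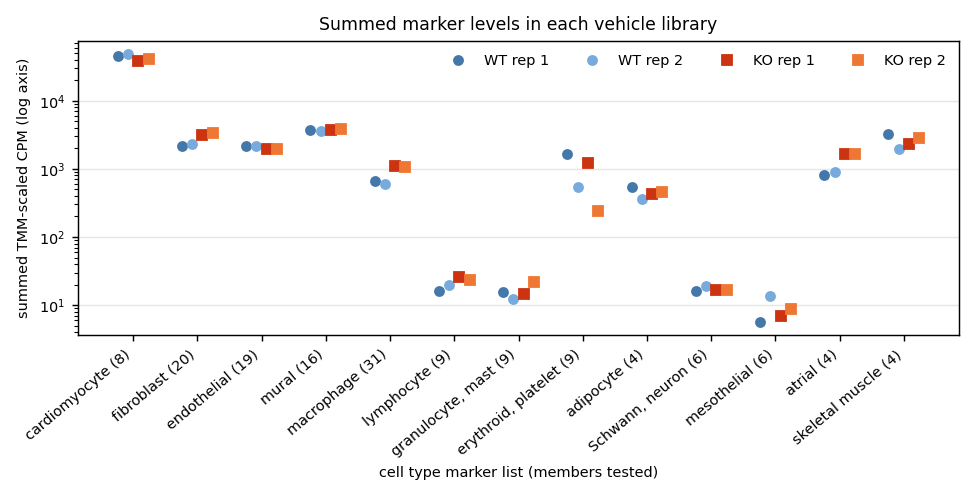
Summed level of each cell type marker list in each vehicle library, as TMM-scaled CPM on a log axis, with circles for WT, squares for KO and the number of tested members in brackets. The fibroblast and macrophage sums are higher in both KO libraries, and the erythroid and platelet sum is high in replicate 1 of both genotypes (1665 and 1237 CPM).

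Inflammatory genes leaned higher. Of 36 chemokines, cytokines and adhesion genes none passed, 22 lay above WT in both KO libraries and none below, 10 were higher at an unadjusted p under 0.05 and none lower (0 and 1 lower against each WT library alone), and the median was 1.02, which was 0.40 without KO vehicle replicate 1 and 1.22 without KO vehicle replicate 2. Serpina3n, an acute-phase protease inhibitor, measured 17 and 11.1 CPM in WT and 99.1 and 59.5 CPM in KO, a change of 2.50 ± 0.35 (SE) just short of the threshold (edgeR, adjusted p = 0.0643). The lymphatic chemokine gene Ccl21a measured 11.3 and 13 CPM in WT and 22.9 and 29.8 CPM in KO (1.12 ± 0.19 SE; edgeR, adjusted p = 0.122), and Cxcl14 16.1 and 22.7 CPM in WT and 49.3 and 30.4 CPM in KO (1.04). The leukocyte adhesion gene Icam1 measured 10.5 and 12.2 CPM in WT and 18.9 and 16.7 CPM in KO (0.65). For Serpina3n and Cxcl14 KO vehicle replicate 1 was the higher KO library, the opposite of Postn and Ltbp2. The summed macrophage markers, given above, were higher in the same libraries, and their part in these values was not tested.

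Complement genes were higher in nearly every case, with 19 of 20 positive, 17 above WT in both KO libraries and none below, 12 higher at an unadjusted p under 0.05, none past the threshold, and a median of 0.83. Serping1, the C1 inhibitor, measured 83.1 and 80.7 CPM in WT and 152 and 159 CPM in KO (0.92 ± 0.18 SE; edgeR, adjusted p = 0.164). C3ar1, the receptor of the C3a fragment, measured 6.26 and 8.14 CPM in WT and 15.8 and 13.9 CPM in KO (1.04; edgeR, adjusted p = 0.207). C1qa, a chain of C1q made by macrophages, measured 45.7 and 29.97 CPM in WT and 69.7 and 63.5 CPM in KO (0.82, or 0.54 and 1.16 against each WT library alone; edgeR, adjusted p = 0.322). Antigen presentation and interferon genes had a smaller median: of 36, none passed, 6 were higher at an unadjusted p under 0.05, 21 overlapped between the groups, and the median was 0.30 (0.08 and 0.54 against WT vehicle replicate 2 and the library labelled WT vehicle replicate 1 alone, with 3 and 10 genes higher and 2 and 0 lower, and 0.20 without KO vehicle replicate 1). The class II genes H2-Aa and Cd74 had log2 changes of 0.74 and 0.68, and the interferon-induced genes Oas1a and Ifi27l2a of 0.80 and 0.98 (for Ifi27l2a 0.58 and 1.51 against each WT library alone).

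Genes of fatty acid oxidation, the main fuel pathway of the adult heart, were lower by a small amount. None of 41 passed, 25 lay below WT in both KO libraries and 2 above, 13 were lower at an unadjusted p under 0.05 and 1 higher, and the median was -0.26 (-0.21 and -0.33 against WT vehicle replicate 2 and the library labelled WT vehicle replicate 1 alone, with 4 and 12 genes lower). Acsl1, the acyl-CoA synthetase of heart muscle, measured 808 and 930.2 CPM in WT and 633 and 634 CPM in KO (-0.46 ± 0.16 SE; edgeR, adjusted p = 0.476). Acadvl, which starts the oxidation of very long chains, measured 846 and 843 CPM in WT and 649.7 and 689.9 CPM in KO (-0.33 ± 0.12 SE; edgeR, adjusted p = 0.511), with nearly equal WT libraries. The transporter gene Slc27a1 and the mitochondrial carrier gene Ucp3 had log2 changes of -0.62 and -0.64. Here too the summed heart muscle markers were lower in both KO libraries, though not with Myh6 left out, and their part was not tested.

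The nuclear-encoded respiratory chain gave a median that turned with the WT library. It was -0.13 over 49 genes, with 48 of them negative, 41 overlapping between the groups and 1 at an unadjusted p under 0.05, Sdha, a succinate dehydrogenase subunit (1324 and 1482 CPM in WT and 1056 and 1118 CPM in KO, a change of -0.37). Against WT vehicle replicate 2 alone the median was 0.14 and against the library labelled WT vehicle replicate 1 alone -0.33. The subunit genes Ndufs1 and Ndufv1 of complex I and Atp5a1 of ATP synthase had log2 changes of -0.25, -0.26 and -0.23. Without KO vehicle replicate 1 or replicate 2 it was -0.06 and -0.22. Glucose use (33 genes) had a median of -0.11 (-0.12 and -0.00 against each WT library alone), with 2 higher and 3 lower at an unadjusted p under 0.05 (0 and 5 higher and 1 and 6 lower against each WT library alone). Pfkfb1 and Pfkfb2 encode enzymes that set the level of an activator of phosphofructokinase. Pfkfb1 measured 8.67 and 6.48 CPM in WT and 4.48 and 3.21 CPM in KO (-0.97; edgeR, adjusted p = 0.275), and Pfkfb2 59.2 and 90.3 CPM in WT and 37.7 and 43.3 CPM in KO (-0.88, or -0.55 and -1.15 against each WT library alone; edgeR, adjusted p = 0.409). The lactate exporter gene Slc16a3 measured 2.05 and 1.54 CPM in WT and 3.8 and 3.81 CPM in KO (1.09; edgeR, adjusted p = 0.524).

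Stress genes had small medians. The ATF4 and unfolded protein list (31 tested) had none past the threshold, 6 higher at an unadjusted p under 0.05, none lower and a median of 0.22 (0.41 and 0.07 against WT vehicle replicate 2 and the library labelled WT vehicle replicate 1 alone, with 9 and 4 genes higher and 1 lower in each, and 0.07 without KO vehicle replicate 1). Asns, asparagine synthetase, measured 1.44 and 1.5 CPM in WT and 4.1 and 2.61 CPM in KO (1.19; edgeR, adjusted p = 0.305), and Mthfd2, of mitochondrial one-carbon metabolism, 1.85 and 2.59 CPM in WT and 5.69 and 3.98 CPM in KO (1.11; edgeR, adjusted p = 0.31). The antioxidant list (32) had 5 higher (2 and 10 against each WT library alone), and a median of 0.16 that became -0.11 against the library labelled WT vehicle replicate 1 alone and 0.38 against WT vehicle replicate 2 alone. Its secreted glutathione peroxidase gene, Gpx3, was higher in both KO libraries, at 179 and 130.3 CPM in WT and 284 and 280.1 CPM in KO (0.87 ± 0.17 SE; edgeR, adjusted p = 0.164). Atrophy ligases and small heat shock proteins (25) had a median of -0.01 (-0.08 and 0.26 against each WT library alone), none higher at an unadjusted p under 0.05 (0 and 2 against each WT library alone) and 1 lower, Fbxo31, an F-box subunit of a ubiquitin ligase (123 and 124 CPM in WT and 99 and 92.2 CPM in KO, a change of -0.37). Trim63, the muscle ubiquitin ligase MuRF1, measured 165 and 197 CPM in WT and 152 and 159 CPM in KO, and the small heat shock protein gene Hspb1 162 and 114 CPM in WT and 189.6 and 182 CPM in KO.

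The prostanoid pathway is the one on which ifetroban acts in the other arm of the series. Of 30 genes tested in mice on plain water none passed, 9 were higher at an unadjusted p under 0.05 and none lower (1 and 0 lower against each WT library alone), 14 lay above WT in both KO libraries and 1 below, and the median was 0.28. Upstream, Pla2g4a, the phospholipase that releases arachidonic acid, measured 3.23 and 2.07 CPM in WT and 5.35 and 4.66 CPM in KO (0.93 ± 0.27 SE; edgeR, adjusted p = 0.375). Tbxas1, thromboxane synthase, measured 1.44 and 2.31 CPM in WT and 3.57 and 3.13 CPM in KO (0.83 ± 0.28 (SE), or 1.22 and 0.54 against each WT library alone; edgeR, adjusted p = 0.456), and Ptgis, prostacyclin synthase, whose product opposes thromboxane, 15.6 and 12.1 CPM in WT and 23.9 and 27.1 CPM in KO (0.88 ± 0.28 SE; edgeR, adjusted p = 0.413). Tbxa2r, the thromboxane receptor gene itself, measured 2.41 and 3.12 CPM in WT and 5.24 and 5.06 CPM in KO (0.89 ± 0.38 SE; edgeR, adjusted p = 0.592). In each of these the groups did not overlap, and Tbxas1 is also a macrophage transcript. Alox5ap, which serves leukotriene synthesis, measured 7.18 and 5.39 CPM in WT and 12.5 and 9.56 CPM in KO (0.81).

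The relatives of the genes that fell gave no further call. Among the 16 tested genes of securin, separase and cohesin, Sgol2a, a shugoshin that protects cohesin, was the other at an unadjusted p under 0.05, at 9.59 and 11.3 CPM in WT and 6.34 and 7.71 CPM in KO (-0.57; edgeR, adjusted p = 0.52), and the cohesin release gene Wapl had a log2 change of -0.25 (-0.03 and -0.44 against each WT library alone). The median of the 16 was -0.13 and turned with the WT library (0.06 and -0.24 against each alone). Cell cycle genes (31) had a median of 0.43 (0.86 and 0.22 against each WT library alone, and 0.50 and 0.24 without KO vehicle replicate 1 or replicate 2), with 4 higher at an unadjusted p under 0.05 and none lower, against 2 without the library labelled WT vehicle replicate 1 and 9 without WT vehicle replicate 2. The replication helicase genes Mcm5 and Mcm6 measured, in turn, 1.69 and 2.07 CPM in WT and 4.02 and 4.06 CPM in KO (1.10) and 5.44 and 6.52 CPM in WT and 9.83 and 10.2 CPM in KO (0.74; edgeR, adjusted p = 0.28), and the cyclin gene Ccnd1 66.9 and 85.9 CPM in WT and 96.4 and 109 CPM in KO (0.43, or 0.62 and 0.26 against each WT library alone). Besides Cyfip2, the other 22 WAVE, Rac and Arp2/3 genes had none lower at an unadjusted p under 0.05 and 3 higher (1 and 4 against each WT library alone). The blood-cell form Nckap1l measured 5.69 and 6.8 CPM in WT and 10.4 and 10.8 CPM in KO (0.75). Rac2, also a form of blood cells, measured 2.87 and 2.71 CPM in WT and 5.69 and 4.42 CPM in KO (0.86), and the Arp2/3 subunit gene Arpc1b 36.4 and 31.6 CPM in WT and 59.1 and 50.3 CPM in KO (0.68). None of the 3 passed (edgeR, adjusted p from 0.299 to 0.452).

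**Figure D5:**
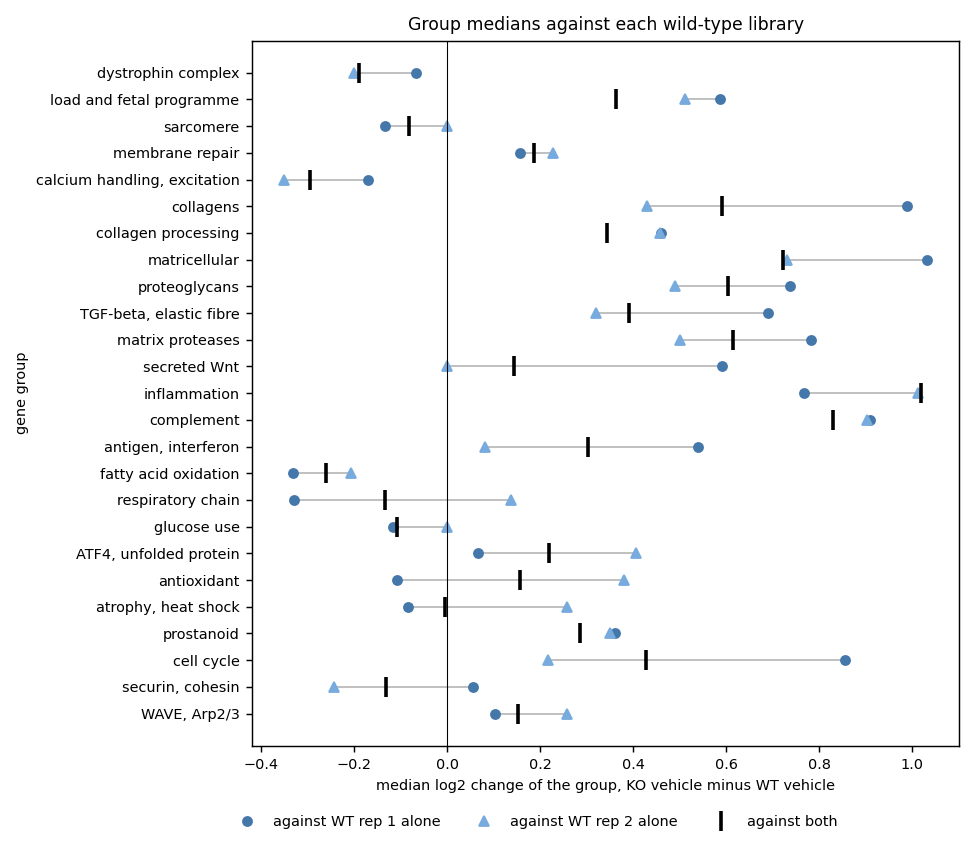
Median log2 change of each of the 25 gene groups against both WT libraries (bar), against the library labelled WT vehicle replicate 1 alone (circle) and against WT vehicle replicate 2 alone (triangle). The matrix, inflammation and complement medians other than that of the secreted Wnt genes (-0.00 and 0.59) stay above 0 with either WT library. The medians of the respiratory chain, the antioxidant genes, the atrophy and heat shock genes and the securin and cohesin genes lie on both sides.

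Outside the gene groups, some genes came close to passing. Among those higher, Fcrls, a scavenger receptor of the Fc receptor-like family, measured 5.9 and 5.22 CPM in WT and 12 and 14.5 CPM in KO (1.25 ± 0.18 SE; edgeR, adjusted p = 0.071), and Dio2, the deiodinase that activates thyroid hormone inside cells, 1.69 and 1.46 CPM in WT and 6.49 and 10.2 CPM in KO (2.41 ± 0.36 SE; edgeR, adjusted p = 0.0812). Serpinf1, a secreted serpin that restrains vessel growth, measured 20.8 and 19.3 CPM in WT and 38.8 and 47.1 CPM in KO (1.10 ± 0.17 SE; edgeR, adjusted p = 0.0822), and Tmem119, a membrane protein known from microglia and bone-forming cells, 1.95 and 2.63 CPM in WT and 6.49 and 7.75 CPM in KO (1.62 ± 0.25 SE; edgeR, adjusted p = 0.0822). Fcrls, Serpinf1 and Tmem119 had close values within each group relative to the gap between groups, whereas the KO libraries of Dio2 were farther apart. Among those lower, Clcn1, the chloride channel of skeletal muscle, came closest at 6.36 and 8.02 CPM in WT and 1.94 and 2.13 CPM in KO (-1.82 ± 0.27 SE; edgeR, adjusted p = 0.0753), and Gpr22, an orphan receptor of heart muscle, followed at 60.5 and 51.7 CPM in WT and 31 and 33.1 CPM in KO (-0.81 ± 0.14 SE; edgeR, adjusted p = 0.142). Lgals4, a galectin, measured 29.6 and 19.8 CPM in WT and 9.87 and 10.3 CPM in KO and Efnb3, an ephrin ligand, 101 and 104 CPM in WT and 45.5 and 64.6 CPM in KO, with changes of -1.29 and -0.90. The remaining lower genes by rank, Adamts7, Secisbp2, Whrn and Snhg14, had changes from -0.82 to -0.55 and adjusted p from 0.279 to 0.287 (edgeR).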

How the data were processed

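RNA-seq of left ventricle was analysed from the expected counts per gene that the authors deposited, 1 file per library. The submitters' processing notes name bcl2fastq, STAR, Partek and the build mm10, with no versions or roles, and how reads were counted is not stated in the sources used here. Of the deposited values of the 9 libraries, 28.2% were not whole, though 81.2% were no more than 0.01 from a whole number, and all were rounded. The files hold 0 genes of the mitochondrial chromosome, and 8 pseudogenes resembling it took 22.8% to 28.6% of the counts of a vehicle library and were kept.

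Libraries were grouped by title. Genes that passed filterByExpr by group (minimum count 10) were scaled with TMM factors and fitted with edgeR 4.0.16 (R 4.3.3; quasi-likelihood, robust) as 4 group means over all 9 libraries, with the contrast KO vehicle minus WT vehicle and Benjamini-Hochberg adjustment over 15549 genes (threshold 0.05). Common dispersion amounted to a biological coefficient of variation of 0.176. The SE is the log2 change divided by the square root of F. The labels of KO ifetroban replicate 1 conflict on its treatment, and it was kept as ifetroban. The length slope is Spearman's rho between transcript length (longest GENCODE M21 transcript) and the deviation of a gene from its mean log2 CPM (prior count 2), over 13051 protein-coding genes.

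The comparison and the 38 gene lists (926 entries, 843 tested) were chosen with earlier results of these data known, so no list was tested. Named genes are Sgcd, genes past the threshold, the next 10 by p in each direction with a mean of at least 1 CPM, up to 4 members of each list by p, a fixed set of heart and matrix genes, and genes near Sgcd. Some genes that this rule names are not reported here. Alternatives used limma 3.58.1 and DESeq2 1.42.0 beside other edgeR settings. Only the main edgeR fit was run on simulated counts, drawn without a length slope, and the alternatives were not.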

Additional observations from a re-analysis of the deposited data

How the results depend on the processing

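Against 8 genes past the threshold, DESeq2's Wald test gave 144, no low-count filter 18, only the vehicle libraries 5 (3 of the 8 among them), KO ifetroban replicate 1 counted as vehicle 28, the length-slope set as a term 118, the negative-slope libraries alone 247, and a length and GC offset 35. Leaving out each library in turn gave 2 to 15. DESeq2 size factors, a filter of 1 CPM and protein-coding genes alone each gave 8, and limma-voom 6. The replicate block gave 56, but the labels tie no replicate number to an animal or day. Deviations from the group mean in the libraries labelled WT vehicle replicate 1 and KO vehicle replicate 1 correlated at 0.02 over genes. That value cannot decide whether numbers pair libraries, because the length slope has opposite signs in the WT libraries and the same sign in the KO libraries. Erythroid and platelet genes were higher in replicate 1 of both genotypes. Over the 21 alternatives the 8 genes kept their direction in all 168 values and their call in 130. Of 38 list medians, 27 kept their sign in every alternative. Of the genes given with a log2 change, signs turned in the negative-slope libraries for Sgcd (0.13) and Acta1 (-0.23). With libraries left out in turn they turned for Sgcd (-1.19 to 0.13) and Acta1 (-0.23 to 1.85). The extremes were those without a WT vehicle library, and the cause was not tested. The markers Fabp4, Ckm, Tnni2 and Mylpf, given by level only, also turned sign in some alternatives. With 2 libraries per group, small changes and genes at few counts were not resolved.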
